A study of Mus musculus with 16 samples.

Results

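AltEnterocyte3 is 1 of 17 epithelial cell types that the authors' annotation assigned to single cells of the mouse transverse colon. The cells carrying this label numbered 349 of 22717 in the whole series and of 10373 in the epithelium. The related absorptive types used for comparison were Enterocyte (798 cells), AltEnterocyte (372 cells) and AltEnterocyte2 (438 cells). The name Alt is the authors' own and its meaning is not given in the sources used here.

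RNA was sequenced from single cells of 16 female C57Bl/6J mice, 7 weeks old, with 1 library per mouse. Of these, 12 drank water with 4% DSS (dextran sulfate sodium), which injures the colon lining. A dose of 10 mg/kg followed on day 4, either of SZN-1326-p, a Wnt mimetic that acts on a subset of Frizzled receptors, or of an antibody to GFP, which has no target in the mouse. Colon was taken on day 5 (24 h after dosing) or day 6 (48 h), from 3 mice per arm and time. At each time 2 uninjured mice, without DSS and without a dose, were included. In the comparison of anti-GFP with uninjured mice, called DSS below, DSS and the antibody dose therefore cannot be told apart. Cells of the epithelial fraction and of the digested lamina propria were mixed and sorted before capture. No group received SZN-1326-p without DSS, so every comparison of the protein is within injured colon.

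Absorptive cells of the colon surface take up water and salts, and they also meet bacterial products, bile acids and ingested chemicals. They oxidise such compounds with cytochrome P450 and related enzymes (phase I), couple them to glucuronide, sulfate or glutathione (phase II), and move them out with membrane transporters. Duox2 is an oxidase that releases hydrogen peroxide at the cell surface, and Duoxa2 is the partner protein that brings it there. Wnt signals maintain the stem cells at the crypt base and are low in mature surface cells.

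The 5 genes given as marks of the type were Ggt1, Slc30a10, Cyp2d26, Ces2a and Duox2. Ggt1 (gamma-glutamyltransferase) breaks down extracellular glutathione, Slc30a10 exports manganese, Cyp2d26 is a cytochrome P450, and Ces2a is a carboxylesterase. Over pooled cells, as CPM (the UMIs, or counted molecules, of a gene scaled to the same total in every type), AltEnterocyte3 ranked 1 of the 17 types for Ggt1 (114.8) and for Slc30a10 (93.3). It ranked 2 for the others, behind AltEnterocyte2 for Cyp2d26 (168.9 against 232.0), behind Enterocyte for Ces2a (808.0 against 1013) and behind AltEnterocyte for Duox2 (245.9 against 329.0). Mice with more cells weigh more in these ranks. By the mean over mice with at least 10 cells of the type, in normalized UMIs per cell (UMIs divided by the authors' size factor for the cell), it ranked 3 for Ces2a (10.4 against 19.1 in Enterocyte), and Cyp2d26 was 1.47 against 3.06 in AltEnterocyte2. The lists of detoxification genes, the oxidases apart, held no gene called higher than in AltEnterocyte2, as described below. The type is therefore called by its annotation name. Cell types are named from expression, and how the authors assigned them is not given in the sources used here, so differences between types are descriptions without a test.

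These cells were poor in RNA. They held a median of 3021 UMIs per cell (quartiles 1992 and 4727) and 954 genes, the lowest UMI median of the 17 epithelial types. Enterocyte held 7481 UMIs, AltEnterocyte 12714 and AltEnterocyte2 14423.5. Within every mouse with such cells their median UMI count was 0.167 to 0.494 of that of the whole library. The median mitochondrial share of UMIs was 38.1%, against 29.4% in Enterocyte, 23.9% in AltEnterocyte and 29.05% in AltEnterocyte2. StemCell (41.0%) and TA1 (40.4%) were higher still. Gm42418, a gene model that overlaps ribosomal RNA and was singled out after its values were seen, took a median of 8.93% of UMIs, the highest of the 17 types. The other 3 absorptive types lay between 2.19% and 3.13%. A low count per cell, a high mitochondrial share and a high ribosomal RNA share thus went together in the cells with this label, and their part in the results below was not tested.

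**Figure D1:**
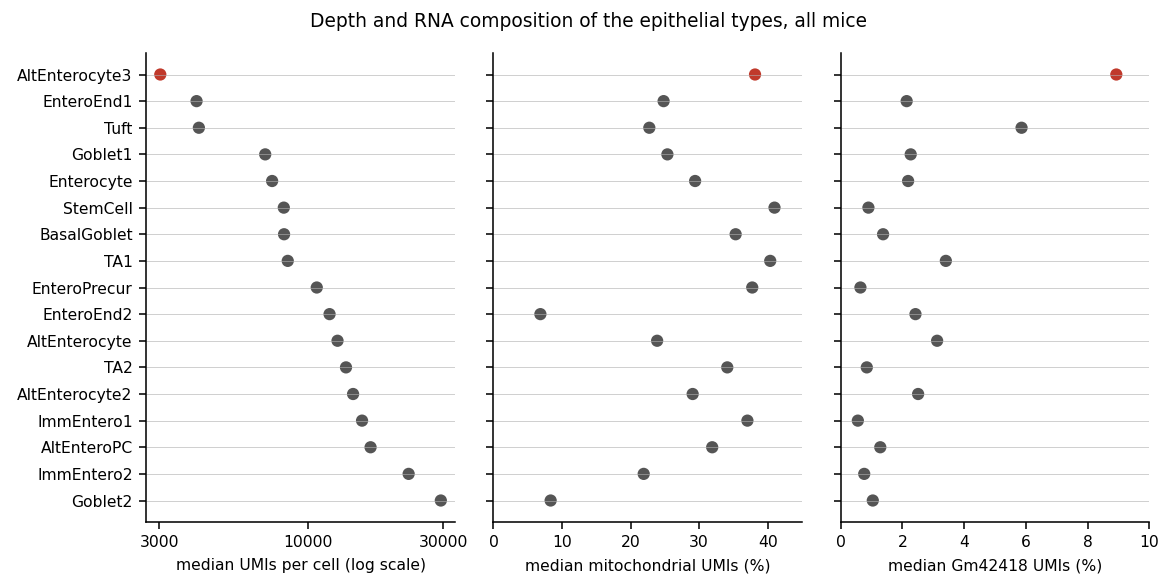
Median UMIs per cell (log axis), median mitochondrial share and median Gm42418 share of UMIs (%) in the 17 epithelial types over all cells of all mice, with 1 point per type and AltEnterocyte3 in red. AltEnterocyte3 sits lowest for UMIs (3021) and highest for Gm42418 (8.93%), and below StemCell and TA1 for the mitochondrial share (38.1%).

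The cells were mostly absorptive by their markers. Of 36 colonocyte markers 35 were detected, and their summed level was 361 to 527 normalized UMIs per cell over the mice with at least 10 such cells. Over pooled cells, as for the means of the lists below, it was a mean of 439, against 1422 in Enterocyte, 1129 in AltEnterocyte and 718 in AltEnterocyte2. All 10 goblet cell markers (mucus-secreting cells) were detected, with a sum of 13.3 to 97.3 and a mean of 40.4, against 19.8 in Enterocyte, 13.5 in AltEnterocyte and 9.06 in AltEnterocyte2. Markers of 13 of the 349 cells reached the level set for another lineage. That level was at least 5 UMIs of a non-epithelial list or 20 of the goblet list. Without these 13 the goblet sum was 24.9, but 9 of them met the goblet rule, which by itself lowers that sum. A single cell of uninjured mouse 1 at 24 h held 98.9% of all Igkc UMIs of the type and 98.9% of Jchain, both immunoglobulin genes of plasma cells. T cell, endothelial, tuft and macrophage lists summed to means of at most 0.509, with 7, 5, 4 and 9 of their 10 markers detected. Neutrophil markers summed to 0.268. Higher sums came from B and plasma cell markers (16.3, and 1.78 without the 13 cells) and fibroblast markers (1.90, and 0.792 without them). Stem and transit-amplifying markers summed to 1.97, above Enterocyte (1.38), AltEnterocyte (1.06) and AltEnterocyte2 (1.31). Enteroendocrine markers summed to 1.75. The barcode sequences of 2 AltEnterocyte3 cells also occurred in another library, of 129 such cells in the whole series.

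Most called genes were lower in AltEnterocyte3 than in AltEnterocyte2. Within mice with at least 10 cells of both types (7 mice), the level in AltEnterocyte3 was set against that in AltEnterocyte2 of the same mouse, as log2 of the mean normalized UMIs per cell plus 0.1. A gene was called where the mean difference was at least 1 log2 and had the same sign in every mouse. By this rule 27 of 6182 genes were higher in AltEnterocyte3 (0.437%) and 401 were lower (6.49%), with a median over all genes of -0.39. This imbalance depended on the scaling: with CPM over nuclear genes, leaving out genes rich in ribosomal RNA reads, 88 were higher and 108 lower, around a median of 0.02. With CPM over all UMIs, 17 were higher and 260 lower.

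Duox2, its partner Duoxa2 and goblet genes led the side that was higher than in AltEnterocyte2. Duox2 differed by 2.39 ± 0.77 log2 (SD, n = 7 mice, higher in all 7), from 0.91 to 3.52, and Duoxa2 by 1.91 ± 0.86, from 0.76 to 2.91. Ly6g (3.40), a surface protein best known from neutrophils, differed most, followed after Duox2 by Clca4a (2.26), a colonocyte surface protein. The goblet products Tff3 (2.22), Zg16 (1.87), Agr2 (1.74), Spink4 (1.54) and the mucin Muc2 (1.46) were higher in all 7 mice too, as was Sycn (1.97). Car4 (1.31), a carbonic anhydrase of surface colonocytes, was higher while its relative Car1 was lower (-2.15 ± 0.63). Also lower in all 7 mice were Reg3b (-2.27), an antimicrobial lectin, Mgst3 (-2.26), a microsomal glutathione transferase, S100g (-2.26), a calcium-binding protein, and Slc51b (-2.08), a subunit of the bile acid exporter.

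Except for the oxidases, the detoxification lists held lower calls and no higher ones against AltEnterocyte2, beside 6.49% of all genes lower. Of 30 measured phase I genes, 0 were called higher and 8 lower, with a median difference of -0.56 beside -0.39 for all genes. They included Cyp2c55 (-1.22) and Cyp2d26 (-1.04), a mark of the type. Of 10 esterases 0 were higher and 5 lower (median -1.11), of 24 phase II genes 0 and 9 (-0.91), and of 21 glutathione and redox genes 0 and 5 (-0.48). Of 13 drug and bile acid transporters 0 were higher and 4 lower (-0.72), and of 16 metal transport and storage genes 0 and 3 (-0.58). The oxidase list stood on the other side, with 2 of 6 genes higher, 0 lower and a median of 0.94. Ggt1 (0.17 ± 0.90, higher in 5 of 7 mice), Slc30a10 (-0.27 ± 0.68, 4 of 7) and Ces2a (-0.18 ± 0.32, 2 of 7) did not separate the types. With the nuclear scaling the differences of Ces2a (0.92) and Slc30a10 (0.39) were positive. The list counts were not recomputed under the other scalings, so these lists are not shown to be lower apart from the shift of all genes.

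**Figure D2:**
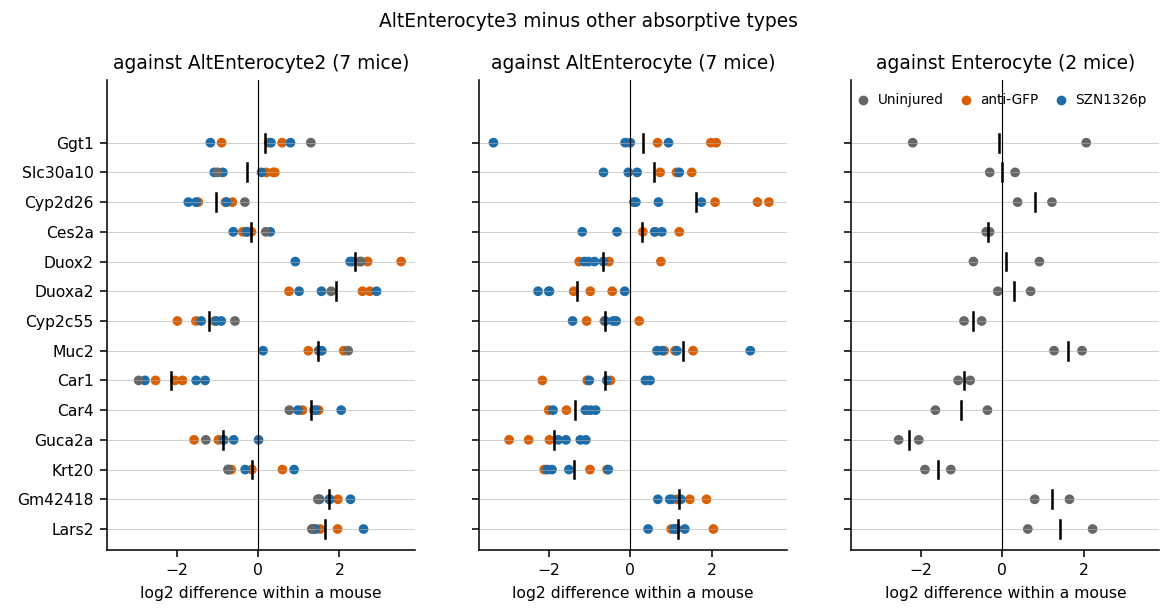
Differences of log2(normalized UMIs per cell + 0.1) between AltEnterocyte3 and AltEnterocyte2, AltEnterocyte or Enterocyte of the same mouse, with 1 point per mouse coloured by arm and a black bar at the mean. Duox2, Duoxa2, Car4 and Muc2 lie above 0 in all 7 mice against AltEnterocyte2 and Car1, Cyp2c55 and Cyp2d26 lie below it, while Gm42418 and Lars2 lie above 0 in every panel.

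Against AltEnterocyte, present with enough cells only in DSS mice, the surface colonocyte genes were lower. Of 6114 genes 26 were higher (0.425%) and 617 lower (10.1%) in 7 mice, with a median of -0.44. With the nuclear scaling the split was 176 higher and 188 lower (median 0.11), and with all UMIs 33 and 432. Of 33 colonocyte markers 21 were lower and 0 higher, including Guca2a (-1.88), a peptide that drives salt secretion, Slc26a3 (-1.89), a chloride exchanger, and Aqp8 (-1.87), a water channel. Tgm3 (-3.03) and Pmp22 (-2.84 ± 0.34), a membrane protein of cell junctions, were among the 12 with the largest difference, as was the hypoxia factor Hif1a (-2.57). Rnf186, an E3 ubiquitin ligase of colon epithelium, was higher by 2.80 ± 1.22 in all 7 mice. Cyp2d26 (1.61 ± 1.36) and Muc2 (1.29) were higher in all 7 as well. The Cyp2d26 difference was 3.13, 2.09 and 3.41 in the anti-GFP mice. With SZN-1326-p it was smaller, at 0.137, 1.75 and 0.692 at 24 h and 0.0889 at 48 h. Duoxa2 was lower (-1.32 ± 0.83, in all 7) and Duox2 was lower in 6 of 7 (-0.68 ± 0.68), though with the nuclear scaling its difference was 0.35.

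Against Enterocyte only 2 uninjured mice had enough cells of both types, and the values are the least sure of the 3 comparisons. Of 6312 genes 253 were higher (4.01%) and 1512 lower (24%), around a median of -0.47. With the nuclear scaling the split turned to 467 higher and 345 lower (median 0.11), and with all UMIs it was 137 and 360. Goblet markers were higher for 7 of 9 measured genes, led by Clca1 (2.58) and Fcgbp (2.10). These 2 mice held 7 of the 13 cells with markers of another lineage, and without those cells Muc2 was at 0.75, under the threshold. B and plasma cell markers (2 of 4 higher, median 2.21) and fibroblast markers (1 of 7 higher, median 1.34) were higher in the same comparison. The cells left out were chosen in part by their goblet UMIs, which can itself lower Muc2. The part of other lineages in the goblet difference was therefore not tested. Colonocyte markers were lower for 18 of 33 genes, with Guca2a at -2.31 and Krt20 at -1.59. Of the 5 marks, Cyp2d26 was higher in both mice (0.80), Ces2a lower in both (-0.36, but 0.15 with the nuclear scaling), and Ggt1 (-0.07), Slc30a10 (0.00) and Duox2 (0.10) differed in sign between the 2 mice. Called genes numbered 3018 without uninjured mouse 1 at 24 h.

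Ggt1 was at 100.2 ± 76.8 CPM in AltEnterocyte3 (SD, n = 9 mice), 73.0 ± 43.1 in AltEnterocyte2 (n = 11), 33.9 ± 18.0 in AltEnterocyte (n = 12) and 13.5 ± 3.13 in Enterocyte (n = 4). The first 2 overlapped within their spread. Slc30a10 followed the same order at 80.8 ± 30.3, 63.3 ± 40.9, 39.4 ± 41.5 and 20.9 ± 6.25. Ces2a was 806 ± 344 in AltEnterocyte3, between 1006 ± 142 in Enterocyte and 659 ± 215 in AltEnterocyte2, with AltEnterocyte lowest at 240.1 ± 110.5. Cyp2c55, the most abundant P450 among those named here, was lowest in AltEnterocyte3 (1549 ± 521), close to AltEnterocyte (1688 ± 624.9) and under Enterocyte (3073 ± 445) and AltEnterocyte2 (3981 ± 904). The mice behind these means differ between types. CPM here are over all UMIs, of which mitochondrial and Gm42418 UMIs took a larger share in AltEnterocyte3 than in the types set beside it. These orders were not computed with the nuclear scaling and may depend on it.

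Cells within 1 window of depth were compared as well, although their median UMIs still differed, at 3021 in AltEnterocyte3 and 3578 to 3694 in the other types. Cells between 1992 and 4727 UMIs numbered 175 in AltEnterocyte3, 22 in AltEnterocyte2, 61 in AltEnterocyte and 135 in Enterocyte. Duox2 was then 412.5 CPM in AltEnterocyte3 and 310.9 in AltEnterocyte2, and 952.1 in AltEnterocyte. Duoxa2 was lower in AltEnterocyte3 (76.7) than in AltEnterocyte2 (149.2), the reverse of the within-mouse difference over cells of all depths. Ggt1 lay at 133.2, 149.2 and 128.2 in the 3 Alt types and at 21.2 in Enterocyte. Muc2 was 376.0 in AltEnterocyte3, above AltEnterocyte2 (273.6) and AltEnterocyte (169.4) but below Enterocyte (408.8). The last is the reverse of its within-mouse difference from Enterocyte over cells of all depths. The shares of mitochondrial (37.4%) and Gm42418 UMIs (10.45%) remained highest in AltEnterocyte3, against at most 30.8% and 7.46%. These are pooled cells, with no spread over mice.

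The starts of Duox2 and Duoxa2 face away from each other on chromosome 2, and their promoters are printed because both genes were higher than in AltEnterocyte2 in the same 7 mice. The RefSeq windows (GRCm38.p6) run from 250 bases before to 50 after each start, at chr2:122298178-122298477 on the minus strand for Duox2 and chr2:122298650-122298949 on the plus strand for Duoxa2, with 172 bases between them. Capitals mark matches, on either strand, to the motifs counted after the sequences, and each window is written 5′ to 3′ on the gene's own strand.
Duox2: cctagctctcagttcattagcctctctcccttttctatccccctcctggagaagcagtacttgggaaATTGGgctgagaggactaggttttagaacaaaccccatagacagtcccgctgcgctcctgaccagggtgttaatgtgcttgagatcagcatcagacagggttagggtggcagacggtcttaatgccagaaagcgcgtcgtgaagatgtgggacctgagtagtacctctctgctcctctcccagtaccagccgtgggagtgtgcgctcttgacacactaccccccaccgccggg
Duoxa2: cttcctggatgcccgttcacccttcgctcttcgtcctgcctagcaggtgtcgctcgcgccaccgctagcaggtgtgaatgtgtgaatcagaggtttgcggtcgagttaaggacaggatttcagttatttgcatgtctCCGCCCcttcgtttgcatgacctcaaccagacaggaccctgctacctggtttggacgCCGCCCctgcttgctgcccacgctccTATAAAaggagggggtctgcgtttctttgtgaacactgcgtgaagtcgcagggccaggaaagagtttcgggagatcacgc
The Duox2 window held 1 CCAAT match, read here as ATTGG, a motif in 37.4% of 32817 promoter windows. The Duoxa2 window held 1 TATAAA match (in 13.6% of windows) and 2 GGGCGG matches, read as CCGCCC (in 35.6%). TTTATG, a motif bound by Cdx factors, had no match in either window and is in 11.9% of all. The motifs do not overlap each other in these windows, and a match is no evidence of binding.

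The share of AltEnterocyte3 among epithelial cells was higher in DSS mice at 24 h than at 48 h. In anti-GFP mice at 24 h it was 10.9% (95% exact interval 8.19 to 14.1%), 4.62% and 2.42%, and in SZN-1326-p mice 5.63%, 10.7% and 3.12%. At 48 h it was 1.70%, 2.19% and 2.08% with anti-GFP, and 1.18%, 0% and 1.16% with SZN-1326-p. The 0 came from a mouse with 449 epithelial cells, where 3 cells would be 0.668% and the 95% exact interval reaches 0.818%. All 6 DSS mice at 24 h lay above all 6 at 48 h. The difference of mean log2 shares within arms was -2.30 (two-sided exact permutation within arm, p = 0.005, the smallest that 400 arrangements allow). This comparison was chosen after the shares were seen.

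The difference between times was also computed without libraries that stood apart in their composition. Of the 6 DSS mice at 24 h, 3 came from libraries rich in UMIs of long transcripts, a split with no counterpart at 48 h. Without them the difference was -1.81 (exact permutation p = 0.025, the smallest that 40 arrangements allow, n = 3 and 6). Without the 2 SZN-1326-p libraries with a high mitochondrial share (18.9% at 24 h, 24.1% at 48 h) it was -2.36 (exact permutation p = 0.0167). The day of DSS, the time since dosing and the day of tissue collection cannot be told apart. Whether fewer of these cells were present or more were lost on the way to the library cannot be told apart either.

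**Figure D3:**
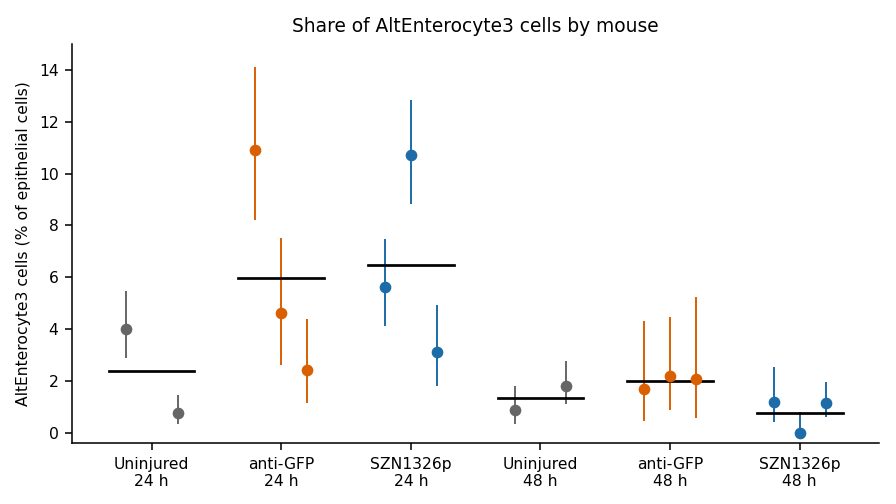
AltEnterocyte3 cells as a percent of epithelial cells in each mouse, by arm and time; points are mice, vertical lines 95% exact binomial intervals, which cover counting error only, and horizontal bars group means. The 6 DSS mice at 24 h range from 2.42% to 10.9% and the 6 at 48 h from 0% to 2.19%, while uninjured mice range from 0.769% to 4.02%.

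The shares in injured and uninjured colon were not separated by the test, nor were those of the 2 arms. Uninjured mice held 4.02% and 0.769% at 24 h and 0.879% and 1.80% at 48 h. The mean share was 3.98% ± 3.54 with anti-GFP (SD, n = 6) and 1.87% ± 1.51 in uninjured mice (n = 4), a log2 difference of 1.11 (two-sided exact permutation within time, p = 0.09). It was -0.064 (exact permutation p = 0.89) as a share of all cells. Among absorptive types it was 1.502 (exact permutation p = 0.03). Without uninjured mouse 1 at 24 h it was 1.69 (exact permutation p = 0.025) and without anti-GFP mouse 3 at 24 h 1.36 (exact permutation p = 0.0167). SZN-1326-p mice held 3.63% ± 3.99 (n = 6), a log2 difference from anti-GFP of -0.90 (exact permutation p = 0.28), with 0.19 at 24 h alone and -1.98 at 48 h alone (exact permutation p = 0.8 and p = 0.1, the latter the smallest that 20 arrangements allow).

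Few genes in these cells were called between anti-GFP and uninjured mice. The test had 3 anti-GFP mice and 1 uninjured mouse at 24 h, since 1 uninjured mouse at that time had 9 AltEnterocyte3 cells and no anti-GFP mouse at 48 h had 10. Of 5396 genes 30 passed limma's test at an adjusted p of 0.05 (0.556%), 15 higher and 15 lower (0.278% each), and 488 had an unadjusted p under 0.05. Those that rose included Ggt1, 3 transporters and an antimicrobial lectin. Those that fell included goblet genes and Pmp22. Immunoglobulin genes fell too, but a single cell of the lone uninjured mouse held 98.9% of the Igkc UMIs of the type. The p-values measure the spread between animals, and the spread of the lone uninjured mouse was taken to be that of the other groups.

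Ggt1 rose with DSS in the 24 h comparison. Its level was 2.79, 0.687 and 3.64 normalized UMIs per cell in the 3 anti-GFP mice and 0 in uninjured mouse 1, whose 39 cells held no UMI of it. All 3 anti-GFP mice lay above it, a separation from 1 mouse only. Their mean was at least 4.28-fold higher, against a floor of 3 UMIs in the uninjured library (a level of 0.555). Anti-GFP mouse 2, with 3 UMIs, lay just above that floor. Later rises given as at least a fold are also of means. The other uninjured mice lay at 0 at 24 h and at 0 and 0.968 at 48 h, and the 3 anti-GFP mice at 48 h at 0. With mice of at least 5 cells, over both times, the log2 difference was 1.32 (limma, adjusted p = 0.49). At 48 h the AltEnterocyte3 cells of the anti-GFP mice, 4 to 7 per mouse, held no Ggt1 UMI.

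Bile acid transporters were the other detoxification genes that were higher in the 24 h comparison, which rested on 1 uninjured mouse. Slc10a2, which takes up bile acids at the apical side, was 5.09, 1.22 and 2.83 against 0.145 (log2 difference 3.48 ± 0.69 SE, limma adjusted p = 0.0050). Slc51a, a subunit of the exporter at the basal side, was 1.83, 0.39 and 3.59 against 0, with a mean at least 3.49-fold higher. Anti-GFP mouse 2, with 1 UMI, lay below the floor of 3 UMIs (0.555), so no rise is shown for that mouse. The glucose carrier Slc5a1 rose as well, and it had no UMI in the uninjured mouse. Both bile acid genes had reached 4.07 and 2.65 in uninjured mouse 2 at 48 h, as high as or higher than in some anti-GFP mice, and that mouse is not in the 24 h contrast. Of 11 transporters tested 2 rose and 0 fell, and of 19 glutathione and redox genes 1 rose (Ggt1) and 0 fell.

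The other detoxification lists held no call. These were 28 phase I genes (median log2 difference 0.25), 8 esterases (0.60), 18 phase II genes (-0.35), 15 metal genes (0.47) and 5 oxidase genes (1.95, positive in all 5), beside a median of -0.16 over all genes. Cyp2d26 was 1.301, 0.964 and 1.249 against 0.189 (2.13 ± 0.75, limma adjusted p = 0.34). Ces2a was 12.2, 12.5 and 12.3 against 12.9 (-0.07 ± 0.50, adjusted p = 0.98), so its level in the 4 mice was close. Duox2 was 3.57, 20.9 and 3.77 against 3.46 (0.91 ± 0.72, adjusted p = 0.74), with anti-GFP mouse 2 apart from the rest. Slc30a10 was 1.68, 1.17 and 1.20 against 0.727 (0.79 ± 0.76, adjusted p = 0.79).

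Outside detoxification, Reg3g, an antimicrobial lectin, rose from 0 to 0.96, 1.21 and 3.72 normalized UMIs, at least 3.53-fold (limma, adjusted p = 0.0096). Its relative Reg3b was 11.7, 8.41 and 56.8 against 0 and missed the threshold (adjusted p = 0.071). The colonocyte genes Car1 (2.42 ± 0.57, adjusted p = 0.048) and Tmigd1 (2.84 ± 0.63, adjusted p = 0.018) rose too. Abcd3, a peroxisomal transporter (at least 2.85-fold), Oat, ornithine aminotransferase (at least 2.65-fold), Phlda1 (at least 2.46-fold) and Cenpb (at least 2.95-fold) rose from 0 UMIs. Paqr4 (3.55 ± 0.80) and the folding enzyme P4hb (3.81 ± 0.68) also rose, though P4hb was -0.44 with mice of at least 5 cells. The call was lost in 10 of 21 alternatives for Cenpb, in 7 of 21 for Oat and for Paqr4, in 6 of 21 for Phlda1 and for Car1, in 4 of 21 for Abcd3 and in 3 of 21 for Reg3g. The smallest differences were 0.26 for Oat, 0.56 for Paqr4 and 0.69 for Cenpb.

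Pmp22 fell from 12.9 normalized UMIs in uninjured mouse 1 to 1.49, 0.928 and 0.757 in the anti-GFP mice (-3.54 ± 0.67, limma adjusted p = 0.0035). The other uninjured mice held 8.05, 9.17 and 4.36, all above these 3. It stayed past the threshold in all 21 alternatives run, with a largest adjusted p of 0.041. The 4-cell anti-GFP mouse 1 at 48 h stood at 6.62. Neat1, a nuclear long noncoding RNA, fell from 61.0 to 13.9, 13.8 and 11.5 (-2.22 ± 0.46, adjusted p = 0.0075), and the other uninjured mice held 57.6, 29.2 and 27.4. At 48 h the anti-GFP mice ranged from 11.5 to 46.8, overlapping the uninjured mice.

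Among goblet genes 2 passed as lower, as did markers of plasma cells. Of 8 goblet markers tested 2 fell (Muc2 and Agr2) and 0 rose, with a median of -2.45. Muc2 went from 29.7 to 4.53, 5.69 and 2.42 (-2.87 ± 0.57, adjusted p = 0.0050) and Agr2 from 17.1 to a mean of 2.97 (-2.53 ± 0.57, adjusted p = 0.018). Mptx1, a pentraxin of the gut, had no UMI in the 3 anti-GFP mice, at least 32.9-fold below uninjured mouse 1. Slc20a1, Tgm3, Utp14b, Acsl3 and Meg3 also fell, by 2.82 to 4.95. The call was lost in 12 of 20 alternatives for Meg3, in 11 of 21 for Tgm3 (-0.53 at the least) and in 7 of 21 for Slc20a1. It was lost in 4 of 21 for Acsl3 and in 2 of 21 for Utp14b. Uninjured mouse 1 held 3 of the 13 cells with markers of another lineage. The B and plasma cell genes tested fell. A single cell of that mouse held 98.9% of the Igkc and 97.1% of the Igha UMIs of the type, so no fall is shown for the other cells. Without those 13 cells 24 genes passed, 16 higher and 8 lower, of which 22 were among the 30. Agr2 kept its call (-2.58) and Muc2 did not (-2.02). Goblet UMIs had helped to choose the cells left out, so this does not test the fall of goblet genes. Over all alternatives Muc2 lost its call in 6 of 21 and Agr2 in 3 of 21.

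SZN-1326-p raised a metal transporter at 24 h, and little else passed the test. With 3 mice on each side, 3 of 5396 genes passed limma's test (0.0556%), all higher, and 406 had an unadjusted p under 0.05. They were Slc11a2, which carries iron and other divalent metals into the cell, Slc38a1, an amino acid carrier, and Npm1, a nucleolar protein of ribosome assembly. No gene passed as lower, at a sensitivity that recovered 5.80% of simulated 4-fold changes. A count-based alternative, voom on the recovered UMIs, called 4 genes, all higher, of which 2 were among the 3.

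Slc11a2 was 0.399, 0 and 0 normalized UMIs per cell in the anti-GFP mice at 24 h and 3.57, 4.14 and 6.18 in the SZN-1326-p mice. This came from 6, 0 and 0 UMIs on one side and 81, 160 and 53 on the other, with no overlap. The log2 difference was 4.75 ± 0.68 (SE, limma adjusted p = 7.3e-05). The uninjured mice held 0.155, 0, 0.558 and 0, so the level in SZN-1326-p mice was above that of both other arms. At 48 h the 2 SZN-1326-p mice with such cells held 4.83 (16 UMIs in 6 cells) and 2.44 (5 UMIs in 13 cells), and the 3 anti-GFP mice held no UMI in 4, 7 and 4 cells. The gene kept its side of the threshold in 19 of 21 alternatives. The exceptions were a pseudocount of 0.01 (7.03, adjusted p = 0.78) and no filter on low values (4.75, adjusted p = 0.38).

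Slc38a1 was 1.20, 0.198 and 0.204 with anti-GFP and 4.44, 2.67 and 4.38 with SZN-1326-p (2.97 ± 0.59, limma adjusted p = 0.026). Npm1 was 1.297, 0.269 and 0.103 against 2.09, 3.29 and 2.72 (2.55 ± 0.53, adjusted p = 0.039). Uninjured mice held 2.52, 2.95, 0.634 and 2.68 of Npm1, of which 0.634 lay within the range of the anti-GFP mice and the others above it. Slc38a1 fell short of the threshold in 7 of 21 alternatives and Npm1 in 10 of 21. These included leaving out anti-GFP mouse 2 (adjusted p = 0.13 and 0.16) or SZN-1326-p mouse 3 (0.90 for both). With a term for the long-transcript libraries the adjusted p was 0.00013 and 8.2e-05, and 15 genes passed (14 higher), the 3 among them.

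**Figure D4:**
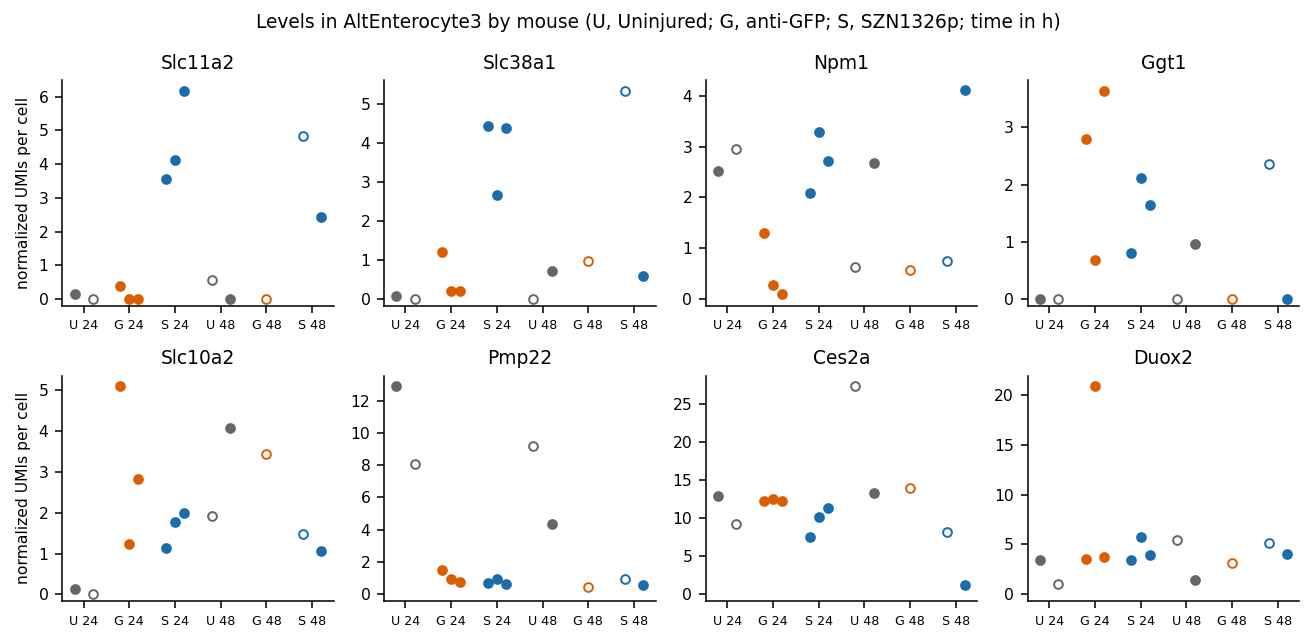
Mean normalized UMIs per cell of 8 genes in the AltEnterocyte3 cells of each mouse, by arm (U, uninjured; G, anti-GFP; S, SZN-1326-p) and time in h; filled points are mice with at least 10 such cells and open points mice with 5 to 9. Slc11a2 is 2.44 to 6.18 in the 5 SZN-1326-p mice shown and at most 0.558 in the others, and Pmp22 is 4.36 to 12.9 in uninjured mice and at most 1.49 in the DSS mice shown.

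The marks of the type and the detoxification lists did not pass for SZN-1326-p at 24 h. Ggt1 was 0.801, 2.11 and 1.64 (-0.43 ± 0.61, limma adjusted p = 0.91), within the range of the anti-GFP mice, as was Duoxa2 in part (0.984, 1.19 and 2.75). Cyp2d26 was 1.16, 4.72 and 2.38 (0.97 ± 0.53, adjusted p = 0.69) and Ces2a 7.50, 10.2 and 11.4 (-0.37 ± 0.35, adjusted p = 0.84). Duox2 was 3.40, 5.74 and 3.99 (-0.61 ± 0.51, adjusted p = 0.82). Of 28 phase I, 8 esterase, 18 phase II, 19 glutathione and 11 transporter genes 0 passed in either direction, with medians of 0.22, 0.30, 0.07, 0.34 and 0.14 beside 0.11 for all genes. Of 15 metal genes 1 passed, Slc11a2. The iron exporter Slc40a1 (-0.24), the ferritin chain Fth1 (-0.09) and the zinc carrier Slc30a4 (-0.99) did not, nor did Ftl1, the other ferritin chain (17.4, 23.5 and 34.7 against 11.5, 13.1 and 15.7, adjusted p = 0.62).

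Of 13 ribosome biogenesis genes tested 1 passed (Npm1), and 11 had a positive difference, with a median of 1.29 beside 0.11 over all genes. Wdr43 (1.97), Pes1 (1.83), Nhp2 (1.82) and Nop58 (1.63) were the largest after Npm1, with adjusted p from 0.63 to 0.68 (limma), so none of these 4 passed. Of 9 cytosolic heat shock genes 8 were positive (median 0.68, 0 passed).

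The same 3 genes were examined in the other absorptive types after their values were seen. In AltEnterocyte2 Slc11a2 was 6.67, 5.44 and 3.30 with SZN-1326-p at 24 h, against 0.599, 0.275 and 0.134 with anti-GFP and 0 to 0.33 in 3 uninjured mice. In AltEnterocyte it was 0.952, 0.266 and 0.883 against 0.469, 0.0609 and 0.116 at 24 h, and 2.81, 1.13 and 1.84 against 0.241, 0.278 and 0.326 at 48 h. Enterocyte, with enough cells only in uninjured mice, held 0.12 to 0.222. The high levels with SZN-1326-p were thus present in all 3 Alt types, and the groups overlapped only in AltEnterocyte at 24 h. Slc38a1 in AltEnterocyte2 was 5.24, 4.63 and 2.39 against 1.83, 0.825 and 0.739 at 24 h, also without overlap, and in AltEnterocyte 1.355, 0.771 and 0.859 against 0.346, 0.197 and 0.212. Npm1 at 24 h was 2.17, 2.08 and 1.84 against 1.4001, 1.125 and 1.66 in AltEnterocyte2, and 1.32, 2.48 and 1.78 against 0.54, 0.688 and 0.877 in AltEnterocyte, without overlap in either type.

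**Figure D5:**
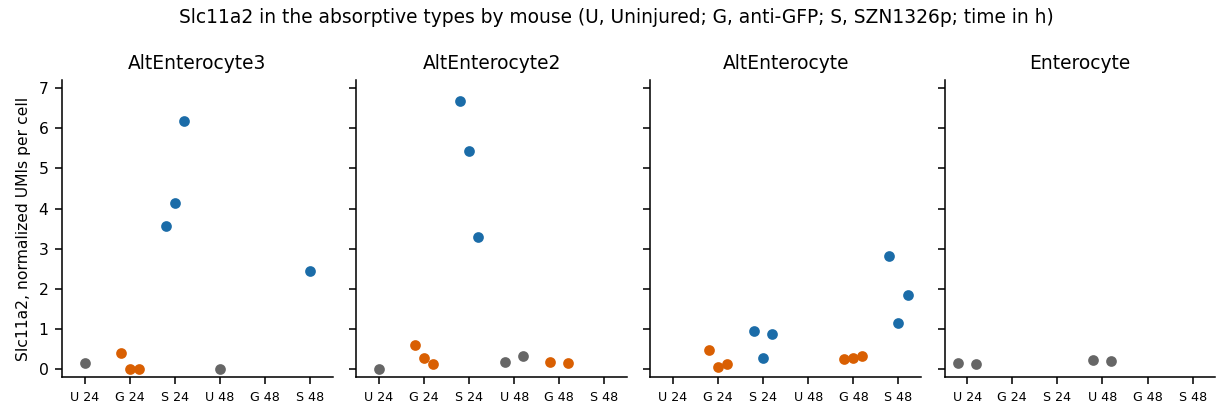
Slc11a2 (mean normalized UMIs per cell) in each mouse with at least 10 cells of the type, for the 4 absorptive types, by arm (U, uninjured; G, anti-GFP; S, SZN-1326-p) and time in h. SZN-1326-p mice at 24 h hold 3.57 to 6.18 in AltEnterocyte3 and 3.30 to 6.67 in AltEnterocyte2, and anti-GFP mice at most 0.599 in either.

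Whether the changes differed between AltEnterocyte3 and AltEnterocyte2 was tested as the within-mouse difference of the 2 types. For SZN-1326-p at 24 h (3 mice against 3), 0 of 5600 genes passed limma's test (0%), and 307 had an unadjusted p under 0.05. For DSS, over mice with at least 5 cells, 0 of 5641 passed (0%) and 1275 had an unadjusted p under 0.05. The lowest adjusted p was 0.055 (limma). The count was 431 with a pseudocount of 0.01 and 414 without uninjured mouse 2 at 48 h. Among the marks, the differences for SZN-1326-p were -0.01 ± 0.67 for Ggt1, -0.37 ± 0.62 for Cyp2d26, 0.07 ± 0.52 for Ces2a and -1.07 ± 0.73 for Duox2, with an adjusted p of 0.94 for Duox2, 0.97 for Cyp2d26 and 0.99 or more for Ces2a and Ggt1 (limma).

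At 48 h the comparison rested on 2 SZN-1326-p mice (6 and 13 cells) and 1 anti-GFP mouse (7 cells). Of 5415 genes 91 passed limma's test (1.68%), 74 higher (1.37%) and 17 lower (0.314%), and 992 had an unadjusted p under 0.05. The spread of the lone anti-GFP mouse was taken to be that of the other groups, and with voom, or with only the groups compared in the fit, 0 passed. Gpx2, a glutathione peroxidase of the gut, was 5.21 and 7.11 against 0 (limma, adjusted p = 1.1e-05). It had been 2.60, 4.66 and 3.85 against 0.805, 0.73 and 2.18 at 24 h. The iron exporter Slc40a1 was 4.03 and 2.27 against 0, and Ces2a fell by 2.08 (8.20 and 1.24 against 13.97, adjusted p = 0.042). The call for Ces2a was lost in 17 of 22 alternatives (-3.40 to -0.76), that for Slc40a1 in 3 of 22 and that for Gpx2 in 2 of 22. The anti-GFP mice with 4 cells held 12.7 and 15.5 of Ces2a and 0 and 0.437 of Gpx2, on the same side as the mouse tested.

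Over both times together, 66 of 5415 genes passed for SZN-1326-p (1.22%), 48 higher (0.886%) and 18 lower (0.332%), with 791 at an unadjusted p under 0.05. The count was 3 with voom and 1 without anti-GFP mouse 2 at 48 h, which is the only anti-GFP mouse of that time in the fit. Slc11a2 (4.95 ± 0.86, limma adjusted p = 2.6e-05) passed in all 25 alternatives of this comparison. Gpx2 (3.79 ± 0.61), Prdx2, a peroxiredoxin (2.70 ± 0.73), and Slc40a1 (2.36 ± 0.66) rose, so that 2 of 19 glutathione genes and 2 of 15 metal genes were higher and 0 lower. Without anti-GFP mouse 2 at 48 h, Gpx2 was 1.63, Prdx2 1.19 and Aqp8 -0.83, with no call. At 24 h Slc40a1 was 2.07, 2.10 and 2.15 against 2.09, 2.09 and 3.62, so the groups overlapped at that time. Aqp8 fell (-1.66 ± 0.40, adjusted p = 0.011), and Ces2a (-1.22 ± 0.35, adjusted p = 0.051) and Cyp2d26 (2.29 ± 0.82, adjusted p = 0.15) did not pass.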

How the data were processed

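Single-cell libraries (10x Genomics, version 3) of 16 mice were analysed. Per the submitters' processing notes, reads were counted with Cell Ranger 3.0.2 on mm10. In the deposited matrix the authors give log2 of 1 plus each UMI count divided by the cell's size factor. Whole UMIs were recovered from 100% of 60867816 entries (tolerance 1e-06). The deposited annotation of the authors was in the unit other, as text labels. The authors' size factor method, cell filters and treatment of doublets are not given in the sources used here, and no doublet caller was run. Libraries held 9616512 to 21335421 UMIs, and AltEnterocyte3 cells 12077 to 397828 per mouse in the 15 mice that had any.

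For each mouse with at least 10 AltEnterocyte3 cells (9 mice), the mean normalized UMI level plus 0.1 was put on a log2 scale and tested with limma 3.58.1 (trend, robust; R 4.3.3), in 1 fit of the groups of arm and time, for genes with a mean of at least 0.2. P-values were adjusted by Benjamini-Hochberg over all genes tested. A planned count test was replaced, since the unit is log2. Mice with at least 5 cells (13 mice) were used where no anti-GFP mouse at 48 h remained. These were the comparisons of SZN-1326-p at 48 h, over both times and between times. For DSS against AltEnterocyte2, mice with at least 5 cells of both types (10 mice) were used. There the uninjured group at 24 h and the anti-GFP group at 48 h held 1 mouse each. Shares were compared as log2 with 0.5 cell added (Python 3.11.15, numpy 2.4.6). On simulated data over 5396 genes, the test recovered 19.4% of genes changed 8-fold for DSS and 45.6% for SZN-1326-p at 24 h. At 4-fold it recovered 2.70% and 5.80%. The simulation assumed a fixed spread for all genes, which was not estimated from these mice. Of its calls, 11.8% were false for DSS and 3.23% for SZN-1326-p.

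The rule named up to 10 genes per direction by size among those past 0.05 with at least 0.5 normalized UMIs and all mice on 1 side, the 5 lowest p where fewer than 5 passed, 12 per direction between types, and a fixed set. Gene models, ribosomal, mitochondrial and immunoglobulin genes were counted but not named unless stated. The members and the 37 gene lists were chosen with earlier results of these data known. Alternatives were other pseudocounts, filters, cell minimums and scalings, voom, a replicate block, each mouse left out, and the cells and libraries named in the text.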

Additional observations from a re-analysis of the deposited data

Results flagged for a closer look

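Among the 6 anti-GFP mice of both times, mouse 1 at 24 h stood apart with an AltEnterocyte3 share of 10.9% of epithelial cells, the others lying between 1.70% and 4.62%. Chance flags about 1 in 20 such groups, and the group joins 2 collection times that differ in this share.

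The effect of SZN-1326-p differed between 48 h and 24 h by limma's test of the difference for 6 of 5415 genes (0.111%, all higher at 48 h), with 635 at an unadjusted p under 0.05. The log2 differences were 4.88 for Hint1 (adjusted p = 0.0036), 5.30 for Cdkn1a, a cell cycle inhibitor (adjusted p = 0.011), 5.03 for Ly6a, a gene of injured epithelium (adjusted p = 0.017), 5.15 for Trib1, 4.74 for Clic5 and 2.98 for Dmbt1 (adjusted p = 0.034 each). Hint1, Cdkn1a, Ly6a, Trib1 and Clic5 were at 0 in anti-GFP mouse 2 at 48 h, the only anti-GFP mouse of that time in the fit, with 7 cells. The anti-GFP mice left out, with 4 cells each, held 6.62 and 1.89 normalized UMIs of Hint1 and 2.96 and 12.1 of Ly6a, against 4.10 and 5.93 and 4.30 and 6.25 in the SZN-1326-p mice. With voom 0 genes passed.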

How the results depend on the processing

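Direction and call were compared with the values in the report. For the share of epithelium, DSS against uninjured was -0.064 as a share of all cells and 1.502 among absorptive types, and 0.53 to 1.69 with 1 mouse left out. SZN-1326-p against anti-GFP was 0.19 at 24 h alone. Leaving out 1 mouse gave -1.20 to -0.32.

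Called genes for DSS numbered 30. They were 404 with no filter, 14 with the replicate block, 96 with at least 5 cells, 263 with at least 20 cells, 77 with voom and 50 with a library term. They were 8 to 51 with 1 mouse left out, with 8 without anti-GFP mouse 1 at 24 h. For SZN-1326-p at 24 h (3 genes), 0 passed with a pseudocount of 0.01 or no filter, 1 with at least 5 cells and 15 with a library term, and 1 to 10 with 1 mouse left out. For both times (66), the counts were 26 with the replicate block, 24 without both high-mitochondrial libraries, 3 with at least 20 cells, 3 with voom and 12 with the times pooled, and 1 to 99 with 1 mouse left out. At 48 h (91), they were 157 with a pseudocount of 0.5, 0 with only the compared groups, 17 with the replicate block, 43 without the high-mitochondrial libraries, 54 without cells of other lineages and 0 with voom, and 46 to 141 with 1 mouse left out. For the difference between times (6), they were 45 and 0 with pseudocounts of 0.01 and 0.5, 33 with no filter, 2 with the replicate block, 1 without the high-mitochondrial libraries, 2 without other lineages and 0 with voom, and 1 to 20 with 1 mouse left out. For DSS against AltEnterocyte2 (0), they were 431 and 295 with pseudocounts of 0.01 and 0.5, 6 with no filter and 123 without other lineages, and 0 to 414 with 1 mouse left out.

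Between types, calls numbered 3160 at a threshold of 0.5 log2, 497 with all UMIs and 812 with the nuclear scaling against Enterocyte (main 1765), and 2286 to 3018 with 1 mouse left out. They were 364 with the nuclear scaling against AltEnterocyte (643), and 827, 277 and 196 under the same 3 settings against AltEnterocyte2 (428). Reversed genes were P4hb (-0.44 at 5 cells) and, at 20 cells for both times, Stim1 (-0.31), Glul (-0.22), Tmed10 (-0.056) and Nos2 (0.58). The causes were not tested.

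Same-numbered mice did not deviate together at 24 h (correlations across genes of 0.023, -0.050 and 0.031), so the numbers were not taken as pairs. Not run were DSS without uninjured mouse 1 at 24 h, the 48 h comparisons at 20 cells or without anti-GFP mouse 2 at 48 h, and the tests against AltEnterocyte2 at 20 cells, since a group was then empty. In the simulation, with its assumed spread, 0% of 2-fold changes were recovered.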
